A study of Mus musculus with 2 samples.

Results

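The receptors for serotonin, noradrenaline, dopamine and acetylcholine were examined in hippocampal Cajal-Retzius (CR) cells of control and Capicua (*Cic*) knockout mice. Members were all genes whose symbol begins with *Htr*, *Adra*, *Adrb*, *Drd* or *Chrm* and a digit, or with *Chrn* and a subunit letter. The rule took 50 of the 32285 genes counted: 14 serotonin receptor genes, 6 alpha and 3 beta adrenergic receptor genes, 5 dopamine receptor genes, 5 muscarinic receptor genes and 17 nicotinic genes. One of the nicotinic symbols, *Chrna1os*, is annotated as an antisense noncoding gene and not as a receptor subunit. CR cells are early-born, reelin-secreting neurons of the hippocampal fissure, most of which die during the first postnatal weeks. The study asked what CIC, a transcriptional repressor, does in these cells.

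Single cells were sequenced from the hippocampus at postnatal day 14, with 1 library per genotype. The control library held *ΔNp73-Cre; Cic flox/+; tdT* cells and the knockout library *ΔNp73-Cre; Cic flox/flox; tdT* cells. Both genotypes carried Cre under *ΔNp73* control and the tdTomato reporter, so the control cells could also have lost 1 *Cic* allele and were not wild type. The paper reports that CIC was deleted from most but not all hippocampal CR cells of this knockout line. The knockout library can therefore hold cells that kept CIC. Each library pooled 4 littermates, 3 males and 1 female in the control and 2 males and 2 females in the knockout. Live tdTomato-positive, DAPI-negative cells were sorted. With 1 library per genotype, the genotype, the library, the animals pooled and their sex balance cannot be told apart, and no test between genotypes was possible. Ratios are therefore given with intervals that cover counting error only.

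Barcodes with at least 2000 unique molecular identifiers (UMIs, where 1 UMI stands for 1 RNA copied at capture) and at least 5 *Reln* UMIs were taken as CR cells. There were 1003 such barcodes in the control library (2012 to 31769 UMIs, median 6224) and 390 in the knockout library (2769 to 33453 UMIs, median 6664), and the libraries shared 0 of these barcodes. All 8 CR markers were detected in at least 25% of cells in both libraries. *Reln* was among the 8, and its share was fixed by the rule. No marker of GABAergic interneurons, granule or pyramidal neurons, astrocytes, microglia or choroid plexus reached 25%. *Rgs5* of mural cells and *Cspg4* of oligodendrocyte precursors did reach it in both libraries, at 81.0 and 75.9 UMIs per 1000000 (CPM) and at 60.0 and 77.7 CPM, while *Olig2* stood at 0. *Cic* RNA was 58.9 CPM in control and 51.3 CPM in knockout cells, but 3′ reads need not cover the deleted exons. *Etv4*, a known CIC target, had 13 UMIs in control and 196 in knockout cells, a ratio of 36.0 (20.6 to 68.8).

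Serotonin, noradrenaline and dopamine act on receptors coupled to G proteins, except for the serotonin-gated channel built from *Htr3* subunits. Acetylcholine acts on muscarinic receptors, which couple to G proteins, and on nicotinic receptors, which are cation channels of 5 subunits. The hippocampus receives serotonin fibers from the raphe, noradrenaline fibers from the locus coeruleus and acetylcholine fibers from the septum, and many of these run in the layer where CR cells lie.

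The values below turn on a pair of serotonin receptor genes, *Htr1f*, the member with most RNA, and *Htr2c*, a member held by few cells. Their RefSeq promoter sequences on GRCm38.p6 are shown up to the annotated gene start, in lower case, with no motif capitalised because none of the motifs searched lay in these stretches. The *Htr1f* stretch is chr16:65105855-65106034 on the minus strand (180 bases, 45.6% G or C) and the *Htr2c* stretch is chrX:146962263-146962512 on the plus strand (250 bases, 55.6% G or C).
*Htr1f*: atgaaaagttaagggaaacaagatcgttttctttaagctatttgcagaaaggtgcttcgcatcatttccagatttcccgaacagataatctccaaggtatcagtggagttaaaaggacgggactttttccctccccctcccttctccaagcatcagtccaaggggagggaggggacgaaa
*Htr2c*: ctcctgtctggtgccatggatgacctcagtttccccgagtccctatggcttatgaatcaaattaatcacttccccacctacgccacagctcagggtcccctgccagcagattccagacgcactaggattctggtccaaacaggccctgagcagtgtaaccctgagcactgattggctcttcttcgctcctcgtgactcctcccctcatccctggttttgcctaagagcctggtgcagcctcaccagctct
The octamers bound by CIC, spelled TGAATGAA, TGAATGGA, TCAATGAA or TCAATGGA and searched on both strands, were present in 1260 of 32851 promoters of 300 bases (3.84%, with 250 bases before and 50 after the start). None of the 43 promoters of the 38 member genes in the table held these letters. The GC box letters GGGCGG, on either strand, were in 24 of the 43 member promoters and in 35.7% of all promoters. *Htr1f* was among the genes with GC box letters in the full window, although the shorter stretch shown above does not hold them. The TATA box letters TATAAA were in 2 of 43 (*Adra2a* and *Chrnb1*) and in 13.6% of all. The palindromic E-box letters CACGTG were in 3 of 43 (*Adra2a*, *Adra2c* and *Chrna7*) and in 7.15% of all promoters. These matches describe letters in a fixed window and not binding.

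Most of the receptor RNA in CR cells was *Htr1f*. Over both libraries, 33 of 50 genes had at least 1 UMI and 17 had 0 in both. Of the 33, 7 rested on a single UMI, 23 had fewer than 20 UMIs (at most 16), 10 had at least 20 and 6 had at least 50. Those 6 genes, *Htr1f*, *Htr2a*, *Htr2c*, *Adra2a*, *Chrnb2* and *Chrm3*, are the ones described in depth. Levels are CPM, UMIs per 1000000 UMIs outside mitochondrial and ribosomal protein genes. Values were not divided by gene length, because in 3′ libraries each UMI is taken to stand for 1 molecule. The intron setting of the counting was not given. Whether levels compared between genes depend on gene length was not tested.

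**Figure D1:**
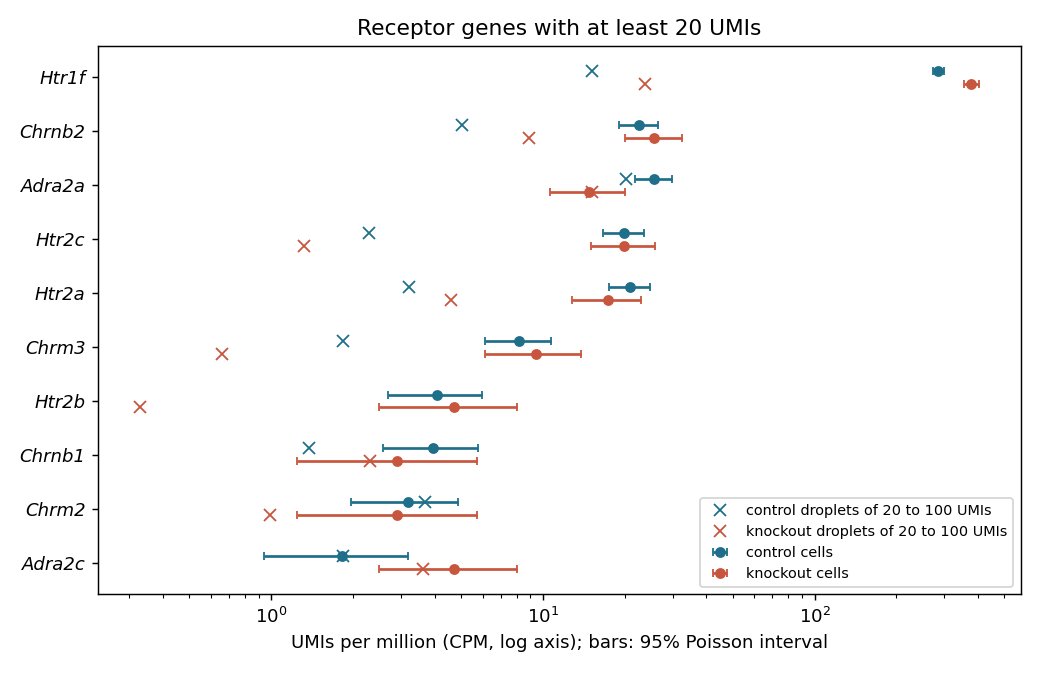
Level of each receptor gene with at least 20 UMIs (CPM, log axis, 95% Poisson interval) in control cells, knockout cells and in droplets of 20 to 100 UMIs of each library. *Htr1f* lies at 286 and 378 CPM, at least 10-fold above the other genes. *Adra2a* and, in control, *Adra2c* and *Chrm2* lie near the level of their droplets. The control droplet level of *Htr2b*, at 0, is not drawn.

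By family, the serotonin receptors held 2208 of 2682 receptor UMIs in control cells (82.3%) and 1169 of 1359 in knockout cells (86.0%). Their summed level was 334 CPM in control and 423 CPM in knockout cells, a ratio of 1.26 (95% interval 1.18 to 1.36). With *Htr1f* left out, the same family stood at 48.8 and 44.8 CPM, a ratio of 0.919 (0.741 to 1.13), so the serotonin family sum followed this 1 gene. The nicotinic family followed with 29.8 and 32.9 CPM (ratio 1.10, 0.850 to 1.42) and the alpha adrenergic family with 28.2 and 20.2 CPM (0.719, 0.523 to 0.974). Muscarinic receptors summed to 11.5 and 13.0 CPM (1.13, 0.739 to 1.70). Dopamine receptors had 6 and 1 UMIs in all. All 50 genes without *Htr1f* summed to 121 CPM in control and 114 CPM in knockout cells (0.942, 0.824 to 1.07).

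*Htr1f* (ENSMUSG00000050783, chromosome 16, 64924729 to 65105854, minus strand of GRCm38, overlapped by no other gene) encodes a serotonin receptor coupled to the inhibitory G proteins Gi and Go. It had 1886 UMIs in control and 1045 in knockout cells, or 286 CPM (273 to 299) and 378 CPM (355 to 401). Only 477 of the 20294 genes detected in control cells and 323 of the 18547 detected in knockout cells had a higher level. The RNA was spread broadly over cells: 76.4% of control cells (Clopper-Pearson interval 73.6 to 79.0) and 89.7% of knockout cells (86.3 to 92.6) had at least 1 *Htr1f* UMI, with a median of 2 in both libraries and maxima of 15 and 9. After each cell was thinned to 2000 UMIs, the shares were 43.3% (40.2 to 46.4) and 50.5% (45.4 to 55.6).

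Free RNA from broken cells gives stray UMIs, and droplets of 20 to 100 UMIs (29040 in control, 75813 in knockout; median 89 and 44 UMIs) show its make-up. In these droplets *Htr1f* made up 15.2 CPM of the control and 23.7 CPM of the knockout UMIs, and 0.107% and 0.0923% of them held an *Htr1f* UMI. Cells were thus 18.9-fold (13.4 to 27.5) and 15.9-fold (12.6 to 20.5) above droplets, well clear of that background in both libraries. Over cells *Htr1f* was close to an even spread: the variance of thinned counts divided by their mean was 1.07 in control and 1.17 in knockout cells, where 1 is pure counting noise. At 2000 UMIs, 56.7% of control and 49.5% of knockout cells had 0 UMIs, 31.0% and 32.6% had 1, 9.57% and 12.1% had 2, and 2.19% and 4.87% had 3.

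**Figure D2:**
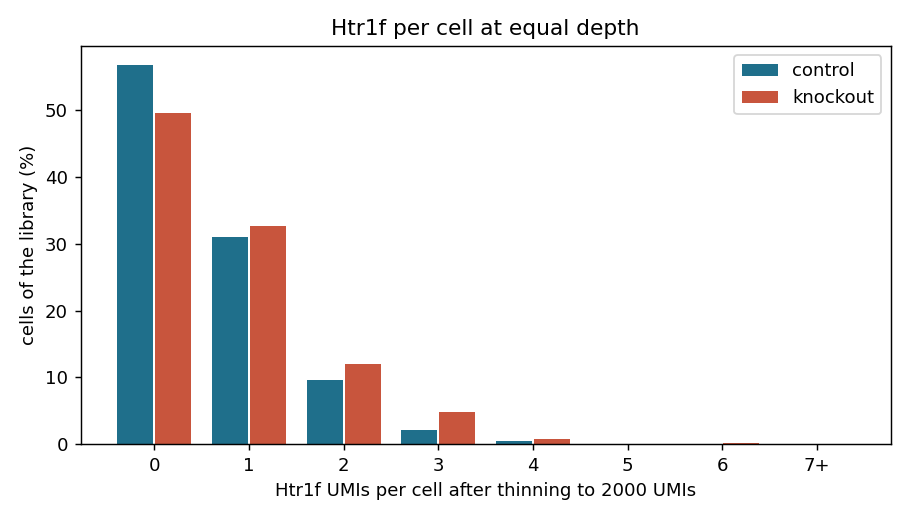
Share of cells (percent) by the number of *Htr1f* UMIs per cell after thinning to 2000 UMIs, for 1003 control and 390 knockout cells. The knockout distribution is shifted to the right, with 49.5% of cells at 0 UMIs against 56.7% in control.

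The *Htr1f* level was 1.32-fold higher in the knockout library (95% interval 1.23 to 1.43). This was under the 1.5-fold size rule used here, and 1055 of 11194 genes with at least 50 UMIs (9.42%) had a ratio as high or higher. Among the 417 genes with at least as many UMIs as *Htr1f*, 10 (2.40%) did. The ratio was above 1 in each subset of cells examined: 1.38 (1.20 to 1.58) with and 1.30 (1.19 to 1.43) without a *Cck* UMI, 1.32 and 1.32 with and without a *Grik1* UMI, and 1.27 and 1.35 with and without a *Chst8* or *Alkal2* UMI. Cells with an *Xist* UMI and no Y-linked UMI, which come from females, gave 1.32 (1.16 to 1.52), and cells with a Y-linked UMI and no *Xist* UMI gave 1.34 (1.21 to 1.48). Within the knockout library, cells with an *Etv4* or *Etv5* UMI had 364 CPM of *Htr1f* and cells without had 389 CPM. The ratio was 0.936 (0.826 to 1.06). Knockout droplets also carried these genes, *Etv4* at 48.4 CPM and *Etv5* at 51.0 CPM, against 70.9 CPM of each in knockout cells. Positive cells were deeper (median 7266 against 6210 UMIs). The part of free RNA and depth in this split was not tested. Whether *Htr1f* follows the loss of CIC cell by cell was therefore not tested.

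By the size rule (at least 50 UMIs over both libraries and at least 1.5-fold), 0 of 6 receptor genes were higher in knockout cells, where 4.38% of the 11194 genes were, and 1 of 6, *Adra2a*, was lower, where 2.97% of genes were and 7.34% were past the limit either way. The median ratio of the 6 genes was 1.07, against 1.01 over all 11194 genes, whose 5th to 95th percentiles ran from 0.720 to 1.47.

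**Figure D3:**
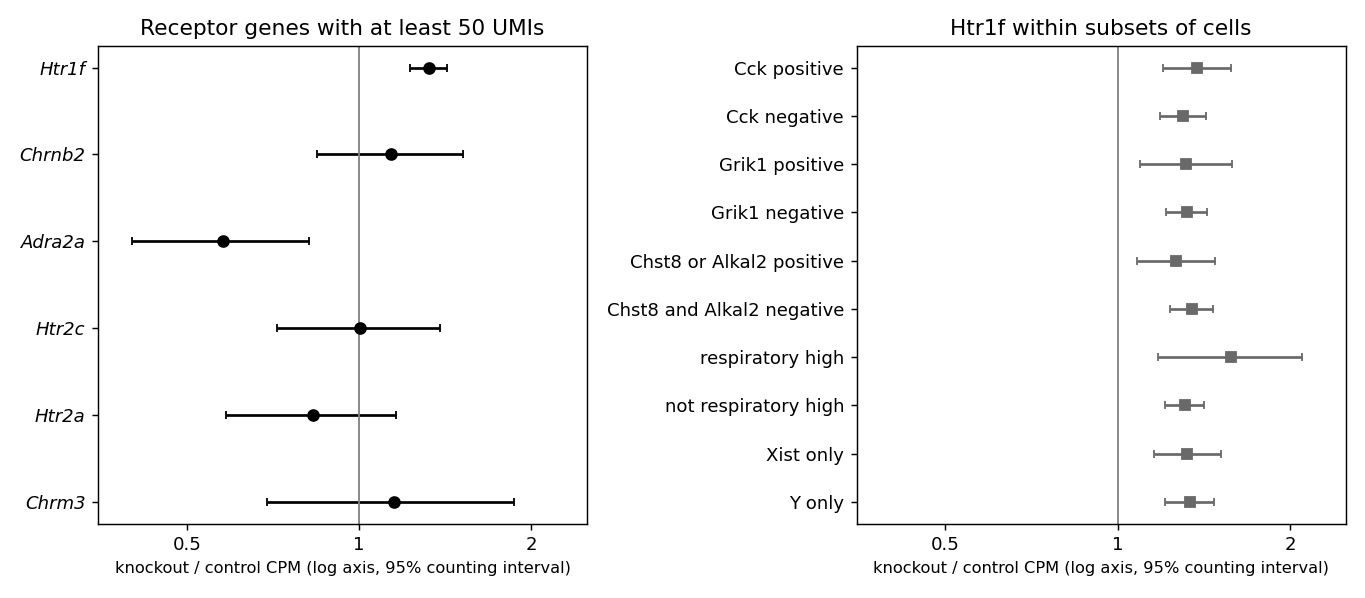
Knockout over control ratio of CPM (log axis) for the 6 receptor genes with at least 50 UMIs, and on the right for *Htr1f* within subsets of cells, with 95% counting intervals. The genes run from *Adra2a* at 0.579 to *Htr1f* at 1.32, the intervals of the other 4 include 1, and the *Htr1f* ratio is above 1 in each subset.

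Among the other serotonin receptors, *Htr2a* and *Htr2c* were the next most abundant, and both code for receptors coupled to Gq, which activates phospholipase C. *Htr2a* (ENSMUSG00000034997, chromosome 14, 74640840 to 74709494, plus strand) encodes the receptor through which many psychedelic drugs act. It had 138 UMIs in control and 48 in knockout cells, 20.9 CPM (17.6 to 24.7) and 17.4 CPM (12.8 to 23.0), and its ratio of 0.830 (0.585 to 1.16) did not leave the range of counting error around 1. At least 1 UMI was found in 11.2% and 10.3% of cells, no cell held more than 3, and the levels were 6.51-fold and 3.77-fold those of the droplets. *Htr2a* RNA was therefore thin in each cell and low over the whole population.

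*Htr2c* (ENSMUSG00000041380, chromosome X, 146962513 to 147197277, plus strand) encodes the receptor best known from choroid plexus and from appetite control. Its level over all cells was close in the libraries, 131 UMIs and 19.8 CPM (16.6 to 23.5) in control cells and 55 UMIs and 19.9 CPM (15.0 to 25.9) in knockout cells (ratio 1.00, 0.718 to 1.38). In cells with an *Xist* UMI and no Y-linked UMI it was 29.3 CPM in control and 21.2 CPM in knockout (0.725, 0.427 to 1.21). In Y-linked cells it was 16.2 and 18.9 CPM (1.17, 0.723 to 1.83). Both intervals include 1, and the pools differed in sex balance. Within subsets the knockout over control ratio was 2.66 (1.34 to 5.37) in cells with a *Chst8* or *Alkal2* UMI and 0.738 (0.488 to 1.09) in cells without. In *Grik1*-positive cells the level was 29.0 CPM in control and 52.2 CPM in knockout (interval of the ratio 1.07 to 2.99). In *Grik1*-negative cells the ratio was 0.695 (0.435 to 1.08). The knockout cell with most *Htr2c*, 8 UMIs, lay in both positive subsets, where knockout cells held 21 and 28 UMIs in all. These 2 ratios thus rest in part on 1 cell, their intervals can be too narrow, and they were not computed without it. The distribution over cells differed from that of *Htr2a* at a similar level. Only 61 control cells (6.08%) and 27 knockout cells (6.92%) had an *Htr2c* UMI, and those cells held 2.15 and 2.04 UMIs on average, with maxima of 11 and 8. The 15 control and 7 knockout cells with at least 3 UMIs held 57.3% and 52.7% of all *Htr2c* UMIs, against 13.0% and 12.5% for *Htr2a*. Thinned counts had a variance of 1.69 times the mean in control cells, against 1.06 for *Htr2a*. In knockout cells the value was 1.12 on 13 thinned UMIs, against 0.982 for *Htr2a*. By this measure the uneven spread of *Htr2c* was seen in the control library and not clearly in the knockout library. The value of 1.17 for *Htr1f* in knockout cells is not a like comparison. Its thinned mean was 0.759 against 0.0333 for *Htr2c*, and the measure can grow with the mean.

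Cells holding *Htr2c* carried the CR markers, as did the other cells. All 8 CR markers were found in at least 25% of them in both libraries, with *Reln* fixed by the rule. *Htr1f* was found in 82.0% and 96.3% of the cells holding *Htr2c*. Summed GABAergic and granule or pyramidal markers were 20.9 and 20.9 CPM in the control cells with *Htr2c*, against 11.4 and 9.54 CPM in all control cells. Knockout cells went the other way, with 0 and 9.46 CPM against 8.68 and 14.5 CPM. *Ttr*, the defining choroid plexus transcript, had 0 UMIs in the 61 control cells and 2 in the 27 knockout cells, and no kept barcode held more than 2. The choroid plexus signature was present elsewhere in the libraries. Of the 8 control and 16 knockout barcodes with at least 2000 UMIs but under 5 *Reln* UMIs, 4 in each library held 100 or more *Ttr* UMIs (495 to 1271 and 125 to 1247). Among the barcodes with at least 2000 UMIs that were not kept, those carried all the *Htr2c*, 13 UMIs in control and 6 in knockout, or 457 and 431 CPM. *Ttr* stood at 54.6 and 139.5 CPM in the droplets, where *Htr2c* was 2.29 and 1.32 CPM, 8.65-fold and 15.1-fold below the CR cells.

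The remaining serotonin receptors were rare. *Htr2b*, the third Gq-coupled member of its group, had 27 and 13 UMIs (4.09 and 4.70 CPM), at most 2 in a cell, and 0 and 1 UMIs in the droplets; it overlaps *Psmd1* on the opposite strand. *Htr1d* had 8 and 3 UMIs, *Htr4* 7 and 1, *Htr7* 4 and 2, and *Htr5a*, *Htr5b* and *Htr3b* no more than 1 in either library. *Htr3a*, the subunit needed for the serotonin-gated channel and a marker of a large interneuron class, had 4 UMIs in control and 1 in knockout cells, below its droplet levels (0.606 against 0.918 CPM and 0.362 against 0.658 CPM). *Htr1a*, the main inhibitory serotonin receptor of hippocampal pyramidal neurons, had 0 UMIs in both libraries, as did *Htr1b* and *Htr6*. Taken at a floor of 3 counts, a count of 0 allows up to 0.454 CPM and 0.299% of cells with a UMI in control, and up to 1.08 CPM and 0.769% of cells in knockout, so CR cells held *Htr1f* without detectable *Htr1a* or *Htr1b* at this depth.

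*Adra2a* (ENSMUSG00000033717, chromosome 19, 54044151 to 54048982, plus strand) encodes the Gi-coupled receptor that restrains noradrenaline release and neuronal firing. It had 169 UMIs and 25.6 CPM (21.9 to 29.8) in control cells and 41 UMIs and 14.8 CPM (10.6 to 20.1) in knockout cells, a ratio of 0.579 (0.401 to 0.819). Of the 11194 genes, 140 (1.25%) had a ratio as low or lower. Its droplets held nearly the same levels, 20.2 CPM in control and 15.1 CPM in knockout, so cells were 1.27-fold (0.905 to 1.81) and 0.979-fold (0.627 to 1.53) the droplets. The *Adra2a* level of cells was thus not above that of free RNA beyond counting error in either library. The CR marker *Trp73* was itself below its droplets, at 471 against 823 CPM in control and 492 against 854 CPM in knockout. A level near that of droplets therefore does not show that CR cells lack a gene. With 10% of each library's UMIs taken as free RNA of droplet make-up and subtracted, the genotype ratio was 0.566 (0.384 to 0.813). In cells with an *Xist* UMI and no Y-linked UMI the ratio was 0.728 (0.413 to 1.26), which is inside the 1.5-fold limit, and in Y-linked cells it was 0.501 (0.287 to 0.827).

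Other adrenergic and dopamine receptors were close to absent. *Adra2c*, another Gi-coupled receptor, had 12 UMIs in control and 13 in knockout cells, a ratio of 2.59 (1.09 to 6.20) on 25 UMIs, with droplet levels of 1.84 and 3.62 CPM beside cell levels of 1.82 and 4.70 CPM. A single knockout cell held 4 of its 13 UMIs, so this interval can be too narrow. *Adra1a* had 4 and 1 UMIs, *Adra1b* 1 and 1, and *Adra1d* and *Adra2b* had 0. Among the Gs-coupled beta receptors, *Adrb1* had 7 and 2 UMIs and *Adrb3* 1 and 4. *Drd3* was the only dopamine receptor with a UMI, 6 in control and 1 in knockout cells, and *Drd1*, *Drd2*, *Drd4* and *Drd5* had 0.

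*Chrnb2* (ENSMUSG00000027950, chromosome 3, 89746195 to 89764632, minus strand) encodes the beta subunit of the most common nicotinic receptor of the brain, which it forms with the *Chrna4* subunit. It had 149 UMIs and 22.6 CPM (19.1 to 26.5) in control and 71 UMIs and 25.7 CPM (20.1 to 32.4) in knockout cells, a ratio of 1.14 (0.845 to 1.52). The level was 4.47-fold and 2.89-fold that of the droplets, and 12.9% and 15.4% of cells held a UMI. Its usual partners were hardly seen. *Chrna4* had 0 UMIs in control and 1 in knockout cells, *Chrna6* 1 and 1, and *Chrna2*, *Chrna3* and *Chrna5* had 0 in both. The *Chrnb2* gene overlaps *Adar* on the opposite strand, and because the strand setting of the counting was not given, some of its reads could not be assigned with certainty.

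*Chrna7*, whose product forms nicotinic receptors without a beta subunit, had 10 UMIs in control cells and 6 in knockout cells, with 0 UMIs in the droplets of either library. *Chrnb1*, a subunit of the muscle receptor, had 26 and 8 UMIs (3.94 and 2.89 CPM, against 1.38 and 2.30 CPM in droplets), while the muscle subunits *Chrna1*, *Chrng* and *Chrne* had 1 UMI each in control and 0 in knockout cells and *Chrnd* had 0 in both. *Chrna9*, *Chrna10*, *Chrnb3* and *Chrnb4* had 2, 2, 0 and 0 UMIs in control cells and 1, 0, 0 and 0 in knockout cells. The antisense gene *Chrna1os*, at 0.606 and 1.08 CPM, lay below its droplets at 5.97 and 1.97 CPM. The alpha subunit genes thus summed to few molecules beside *Chrnb2*.

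*Chrm3* (ENSMUSG00000046159, chromosome 13, 9875486 to 10360847, minus strand) encodes a Gq-coupled muscarinic receptor. It had 54 UMIs and 8.18 CPM (6.15 to 10.7) in control and 26 UMIs and 9.40 CPM (6.14 to 13.8) in knockout cells (ratio 1.15, 0.691 to 1.87), with 1.84 and 0.658 CPM in droplets. Like *Htr2c*, it was held by few cells: 31 control cells (3.09%) and 17 knockout cells (4.36%), of which 7 and 2 with at least 3 UMIs carried 44.4% and 34.6% of the *Chrm3* UMIs. Its gene overlaps *Gm47405* and *Gm47404* on the same strand and *Gm26861* on the other, so reads may be split among them. The Gi-coupled *Chrm2* had 21 UMIs in 9 control cells (at most 6 in a cell) and 8 UMIs in 7 knockout cells. Its levels were 3.18 and 2.89 CPM, against 3.67 and 0.987 CPM in droplets. *Chrm4* had 1 and 2 UMIs, and *Chrm1*, the main muscarinic receptor of hippocampal pyramidal neurons, had 0 in both libraries, as did *Chrm5*.

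The cells were then split by subtype markers. A *Cck* UMI (a neuropeptide gene) was found in 324 control cells (32.3%) and 110 knockout cells (28.2%), a *Grik1* UMI (a kainate receptor subunit) in 194 (19.3%) and 70 (17.9%), and a *Chst8* or *Alkal2* UMI in 232 (23.1%) and 91 (23.3%). Positive cells were slightly deeper, most so for *Chst8* or *Alkal2* in the knockout library (median 7869 against 6361 UMIs). Free RNA also carried the split genes: *Cck* stood at 130 and 85.6 CPM in droplets against 155 and 130 CPM in cells, and *Grik1* at 23.4 and 58.9 CPM in droplets against 79.7 and 48.1 CPM in cells. *Chst8* and *Alkal2* stood further above their droplets (30.4 and 22.8 CPM against 3.67 and 1.65, and 45.9 and 53.5 against 17.9 and 16.8). The part of free RNA in positivity was not tested. Each library was compared within itself.

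**Figure D4:**
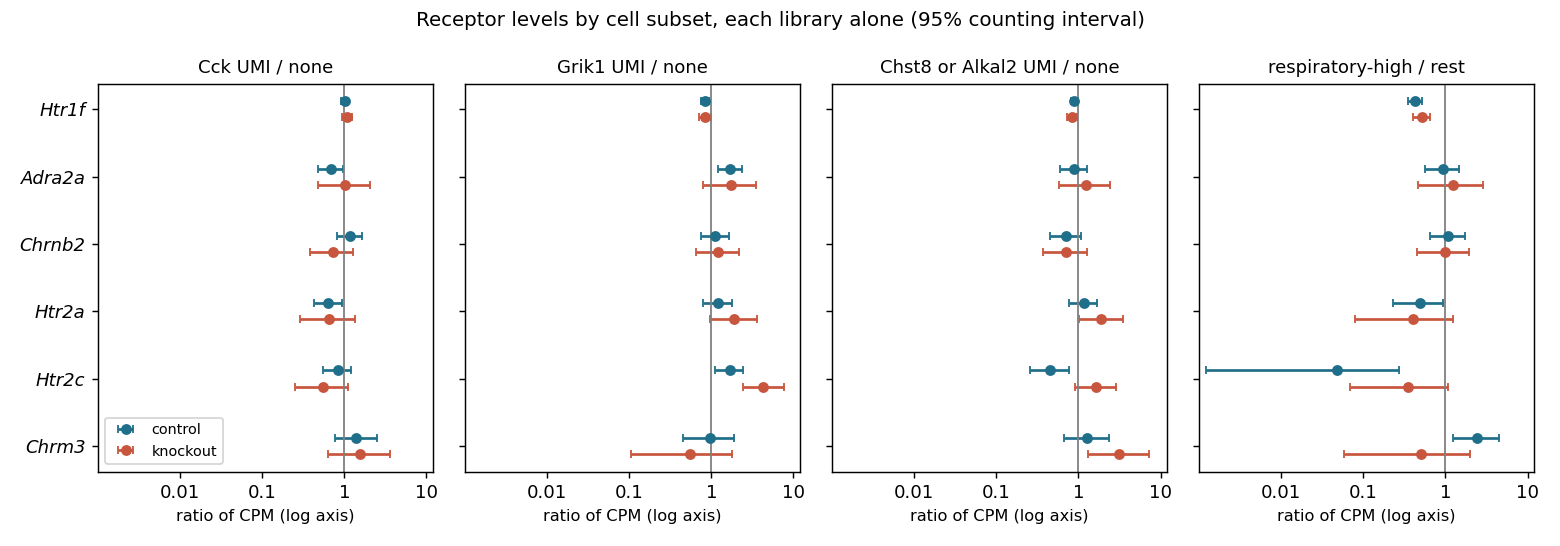
Ratio of CPM (log axis, 95% counting interval) of the 6 receptor genes in cells with a *Cck*, *Grik1* or *Chst8*/*Alkal2* UMI over cells without, and in respiratory-high cells over the rest, for each library. *Htr1f* lies at 0.425 and 0.512 in respiratory-high cells, and *Htr2c* lies at 1.67 and 4.31 in *Grik1*-positive cells.

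*Htr1f* did not vary by 1.5-fold with any of the 3 markers. *Cck*-positive and *Cck*-negative cells had 288 and 284 CPM in control (ratio 1.01, 0.922 to 1.12) and 397 and 370 CPM in knockout cells (1.07, 0.938 to 1.23). *Grik1*-positive cells were at 0.837 (0.742 to 0.941) and 0.836 (0.707 to 0.985) of the level of negative cells in the 2 libraries, and *Chst8*/*Alkal2*-positive cells at 0.895 (0.802 to 0.997) and 0.841 (0.727 to 0.970). These differences were small and ran the same way in both libraries. A larger one lay with respiratory genes. In the 78 control and 29 knockout cells with over 1.8% of UMIs in nuclear respiratory chain genes, *Htr1f* was 132 CPM against 310 CPM in the remaining control cells (0.425, 0.351 to 0.512) and 208 against 406 CPM in knockout cells (0.512, 0.403 to 0.642). The respiratory-high cells also had a median of 13647.5 and 14508 UMIs against 6063 and 6410 in the rest, and the part of this depth in the result was not tested. The share of all genes that differed by 1.5-fold in the respiratory split was not computed.

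*Htr2c* varied most. *Grik1*-positive cells had 29.0 CPM against 17.4 CPM in control (40 and 91 UMIs, ratio 1.67, 1.12 to 2.44) and 52.2 against 12.1 CPM in knockout cells (28 and 27 UMIs, 4.31, 2.45 to 7.60). Of the 3 receptor genes with at least 50 UMIs in each library (*Htr1f*, *Htr2c* and *Chrnb2*), *Htr2c* was the 1 that was at least 1.5-fold higher with *Grik1* in both libraries, where 0.548% of 7849 genes were. None was lower in both, where 1.16% of genes were. Without the single knockout cell with most *Htr2c* UMIs the knockout ratio was 3.14 (1.67 to 5.82), and with *Grik1* positivity set at 2 UMIs the control ratio was 1.33 (0.783 to 2.15). In the respiratory-high cells *Htr2c* had 1 UMI in control against 130 in the rest (0.0481, 0.00121 to 0.273) and 3 against 52 in knockout cells (0.347, 0.0692 to 1.07).

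Counted in each library alone, 6 receptor genes had enough UMIs in control and 3 in knockout cells, so *Adra2a*, *Htr2a* and *Chrm3* could be called in control cells only. With *Grik1*, *Adra2a* and *Htr2c* were higher of 6 genes in control (3.59% of all genes were) and *Htr2c* of 3 in knockout cells (4.84%), and 0 were lower (6.87% and 9.4%). With *Cck*, 0 were higher (3.82% and 5.89%), *Htr2a* was lower in control (4.42%) and *Htr2c* in knockout cells (7.3%). With *Chst8* or *Alkal2*, *Htr2c* was lower in control (7.04%, and 0 were higher against 2.97%) and higher in knockout cells (4.9%, and 0 were lower against 8.76%). With counts thinned to 2000 UMIs and positivity called again on them, the control ratio of *Htr2c* was 2.19.

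By *Cck* and by *Chst8* or *Alkal2*, 0 of these 3 genes were past 1.5-fold in the same direction in both libraries. The shares of all genes were 0.943% higher and 1.24% lower for *Cck*, and 0.841% higher and 1.19% lower for *Chst8*/*Alkal2*. *Htr2a*, which had too few UMIs in the knockout library for that count, was lower in *Cck*-positive cells in both, 15.3 against 23.9 CPM in control (0.641, 0.424 to 0.948) and 12.6 against 19.3 CPM in knockout cells (0.652, 0.290 to 1.33). *Adra2a* was 37.7 CPM in *Grik1*-positive and 22.4 CPM in *Grik1*-negative control cells (1.68, 1.19 to 2.36), and 22.4 against 13.0 CPM in the knockout library (1.72, 0.799 to 3.48). *Chrnb2* was within 1.5-fold in all of the 6 splits, from 0.703 to 1.21. *Chrm3* in *Chst8*/*Alkal2*-positive cells was 1.28 (0.666 to 2.35) times the negative cells in control and 3.09 (1.32 to 7.30) times in knockout cells, on 14 and 12 UMIs in the latter, and 0.780 times there with positivity at 2 UMIs.

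Finally, 55 other genes of monoamine and acetylcholine signaling were examined, covering synthesis, uptake, breakdown, G proteins, their effectors and receptor chaperones. Of these, 35 had at least 50 UMIs, and 0 were 1.5-fold higher or lower in knockout cells, against 4.38% and 2.97% of all 11194 genes. The 20 others had fewer UMIs, 8 of them none in either library: *Th*, *Tph1*, *Dbh*, *Pnmt*, *Slc6a4*, *Chat*, *Slc5a7* and *Plcb2*. Transmitter synthesis and uptake genes were thus at or near 0, apart from the vesicular monoamine transporter *Slc18a2* with 55 and 20 UMIs (8.33 and 7.23 CPM, against 0.918 and 0.987 CPM in droplets). Breakdown genes varied in level. *Ache*, which splits acetylcholine, was 189 CPM in control and 234 CPM in knockout cells (1.24, 1.12 to 1.36; droplets 101 and 87.2 CPM). *Maoa*, which breaks down serotonin and noradrenaline, was 58.8 and 52.8 CPM (droplets 31.2 and 31.6), while *Maob* was 2.27 and 5.78 CPM, below its droplets at 4.59 and 11.2, and *Bche* had 1 and 0 UMIs. Downstream of the receptors, the Go subunit *Gnao1* was at 363 and 347 CPM, beside 263 and 358 CPM in droplets, so it was not above free RNA in the knockout library. The Gq-activated phospholipase *Plcb1* was at 1415 and 1470 CPM (droplets 176 and 182) and the adenylyl cyclase *Adcy8* at 589 and 616 CPM (droplets 64.3 and 67.1). The nicotinic chaperones *Ric3* and *Tmem35a* were at 51.2 and 59.7 CPM (droplets 13.8 and 12.2) and at 9.85 and 11.6 CPM (droplets 2.75 and 6.25).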

How the data were processed

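The authors deposited raw UMI counts per gene and barcode for each library, unfiltered. The submitters' processing notes name Cell Ranger 8.0.1 and mm39, while the study's methods name an older Cell Ranger and mm10; intron and strand settings are not given in the sources used here. Positions were taken by Ensembl ID from the GRCm38 annotation, where all 50 members matched.

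From the deposited counts, barcodes with at least 2000 UMIs and at least 5 *Reln* UMIs were kept, 6601724 and 2765943 UMIs without the mitochondrial genome and cytosolic or mitochondrial ribosomal protein genes (symbols in mt-, Rpl, Rps and Mrp), the total to which CPM were scaled. No doublet caller was run; 1.60% of control and 1.54% of knockout cells held both *Xist* and Y-linked UMIs. Levels carry exact Poisson, shares Clopper-Pearson and ratios exact conditional 95% intervals, for counting error only (scipy 1.17.1, numpy 2.4.6, pandas 2.3.3, Python 3.11.15). The ratio intervals were tested on simulated Poisson counts, which do not cluster in cells. For genes held by few cells, such as *Htr2c*, they can be too narrow. A count of 0 was bounded at 3 counts. Genes were described singly when they had at least 50 UMIs over both libraries, by counts or CPM when fewer, and were counted as higher or lower at 1.5-fold. As an exception, a ratio was also given for *Adra2c*, which had 25 UMIs. Members and lists were chosen with earlier results of these data known. Alternatives are in the closing section. Single values of 2 genes are not reported here.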

Additional observations from a re-analysis of the deposited data

Results flagged for a closer look

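*Htr2c* ran in opposite directions by *Chst8* or *Alkal2* positivity in the 2 libraries. In control cells it was 10.4 CPM with and 23.0 CPM without a *Chst8* or *Alkal2* UMI (17 and 114 UMIs, ratio 0.453, 0.255 to 0.758), and in knockout cells 27.7 and 16.9 CPM (21 and 34 UMIs, ratio 1.63, 0.901 to 2.90). The difference between the libraries was not tested. After thinning to 2000 UMIs, with positivity called again on the thinned counts, the control ratio was 2.19 (0.809 to 5.11). That setting changed the groups of cells as well as the depth. With the groups kept as called before thinning, 2.16% of positive and 2.72% of negative control cells held a thinned *Htr2c* UMI. Without the knockout cell with most *Htr2c* UMIs the knockout ratio was 1.03 (0.497 to 2.00).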

How the results depend on the processing

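Over 15 other settings and 1 chosen after seeing the data (leaving out the top cell of each gene), 160 of 168 family ratios and counts of genes stayed within their limits. A ratio was within its limits inside its main 95% interval, and a count if it changed by at most 1.5-fold. Wide intervals, such as 0.00865 to 3.28 for dopamine, could hardly be left. Some settings could not change some values, such as a minimum of 20 UMIs for family ratios. The tally is therefore no measure of robustness. A ratio was called reversed only if its main value was past 1.5-fold and it crossed 1, and a count could not be. Among families only the beta adrenergic and dopamine sums could thus reverse, and 0 did. Smaller ratios that crossed 1 were not called reversed, such as the muscarinic sum, which ran from 0.931 to 1.59. Genes at least 1.5-fold higher in knockout went from 0 to 1 with a minimum of 20 UMIs (*Adra2c*), and lower from 1 to 0 in *Xist* cells. Genes lower with *Cck* in both libraries went from 0 to 1 with at least 1 *Reln* UMI and with positivity at 2 UMIs. Genes higher with *Grik1* went from 1 to 0 with a *Trp73* UMI required and after thinning, where *Htr2c* kept ratios of 1.79 and 5.41 and of 4.06 and 4.98 on fewer UMIs, and with positivity at 2 UMIs, where its control ratio was 1.33. Genes lower with *Chst8* or *Alkal2* went from 0 to 1 without respiratory-high cells (*Chrnb2*, 0.651 and 0.643). Of 444 single-gene values, 423 were the same, 19 moved and 2 reversed, both in the *Chst8*/*Alkal2* split. *Chrm3* in knockout became 0.780 with positivity at 2 UMIs. *Htr2c* in control became 2.19 after thinning, a setting in which positivity was called again on the thinned counts for each split. The cause was not tested. *Htr1f* kept a genotype ratio of 1.29 to 1.34 and *Adra2a* of 0.501 to 0.728. No paired analysis was possible because each genotype had 1 library. Depth limits genes under about 50 UMIs, and the smaller knockout library allows 1.08 CPM for a gene at 0.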

Other observations

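*Htr1f* shared cells with *Chrnb2* and *Htr2a* about as often as the product of the shares gives, with *Chrnb2* in 102 control cells (98.5 by the product) and 55 knockout cells (53.8), and with *Htr2a* in 85 (85.5) and 38 (35.9). Pairs without *Htr1f* shared few cells. *Htr2a* and *Htr2c* were both found in 14 control cells, where the product of their shares gives 6.81, and in 5 knockout cells, where it gives 2.77. After thinning to 2000 UMIs the counts were 2 against 0.959 and 1 against 0.246. This was not particular to that pair: *Adra2a* and *Htr2c* shared 13 control cells (7.91 by the product) and 5 knockout cells (2.49). After thinning their counts were 1 against 1.32 and 1 against 0.215. Cell depth, which the unthinned values share, was not separated further.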
